A study of Mus musculus with 50 samples.

Results

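Private noncoding insertions and deletions are short gains or losses of DNA (indels) that were called in 1 tumour only and that lie in an intron or between genes. They were taken from a variant table of IL6Myc mouse tumours. A row was kept if it had a single alternate allele, reference and alternate alleles of different length, a deposited tumour count of 1, and the deposited annotation intron or intergenic. This gave 2371 members among 25624 rows with a single alternate allele, that is, 2371 of the 2802 private indels of all annotation classes. The members were chosen by measured values, namely the presence of a call in 1 tumour and the lengths of its alleles, and by the annotation, so the total and the choice itself are a description with no test. The 588 noncoding indels called in exactly 2 tumours lie just outside the rule. Their median read share was 53.2%, against 50% among the members, and 34.9% of them were insertions, against 32.4%.

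The study sequenced the exomes of mesenteric lymph node tumours from separate IL6Myc transgenic mice and of kidneys from wild-type Balb/c mice as controls. The labels list 45 tumours, described as malignant plasma cells, and 5 kidneys. Columns of 44 tumours were used, whereas neither tumour 4 nor any kidney was analysed here. All tumours therefore carry the IL6Myc genotype, named for interleukin 6 and Myc, and no group of mice without it enters a comparison. The sources used here do not give the promoters of the transgenes or the ages of the mice, and DNA calls hold no plasma cell markers against which the cell type could be checked. Each value is a read share, the percent of reads covering a site in which the indel was seen. The table holds no read depth, so no interval could be set around a read share, and a missing call can mean the reference allele or too few reads. Inherited and acquired indels cannot be told apart without a matched normal sample of the same mouse.

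Indels arise when a polymerase slips on a run of repeated bases, so that the copy gains or loses whole repeat units, and when broken ends are rejoined with loss or gain of bases. Mismatch repair removes slipped loops before they become fixed. Runs of A or T and dinucleotide repeats such as CA are abundant in mammalian introns. The same runs also slip in PCR and are hard to align, so indel calls in them are less certain than calls of single nucleotide variants (SNVs). Tandem repeats of such short units are called microsatellites, and one site can occur in many lengths.

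The alleles themselves show these repeats. The first set is an intronic site in a row shared by Ccne2, the gene of the cyclin E2 cell-cycle regulator, and Ints8, a subunit of the Integrator complex. It is shown because 4 tumours each carried another length of the same run. The base before the change is in lower case and the inserted or deleted bases are in capitals, on the plus strand of mm10.
insertion at chr4:11202384-11202385, tumour 5: gTTTTTTTTT
insertion at chr4:11202384-11202385, tumour 43: gTTTTTTTTTTTT
deletion of chr4:11202385-11202391, tumour 6: gTTTTTTT
deletion of chr4:11202385-11202392, tumour 14: gTTTTTTTT
The insertions of 9 and 12 bases had read shares of 100% each, and the deletions of 7 and 8 bases had 75% and 71.4%. Each length counts as private, although the site changed in 4 tumours.

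A second set, in an intron of Cped1, shows a repeat unit of 3 bases lost in 1, 2 or 3 copies.
deletion of chr6:22185185-22185187, tumour 29: aAAG
deletion of chr6:22185185-22185190, tumour 14: aAAGAAG
deletion of chr6:22185185-22185193, tumour 12: aAAGAAGAAG
All of these had a read share of 100%. A dinucleotide example lies in an intron of the zinc finger gene Zc3h11a, where tumour 36 gained 9 copies of CT, tumour 30 gained 14 and tumour 7 lost 1.
insertion at chr1:133626004-133626005, tumour 36: cCTCTCTCTCTCTCTCTCT
insertion at chr1:133626004-133626005, tumour 30: cCTCTCTCTCTCTCTCTCTCTCTCTCTCT
deletion of chr1:133626005-133626006, tumour 7: cCT
Their read shares were 54.5%, 14.3% and 46.2%. The last set holds changes in which no shorter unit makes up 2 or more whole copies. Whether any of them is a single copy of a longer repeat was not tested. They lie in Dnah8, which encodes a dynein heavy chain of the axoneme, in Zc3h11a and in the antibody heavy chain locus.
deletion of chr17:30718113-30718134, tumour 43: cCCAGAACAGGTGAGCCTCCATT
deletion of chr1:133626034-133626052, tumour 29: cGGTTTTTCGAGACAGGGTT
deletion of chr12:113687499-113687505, tumour 27: tGGGCACC
Their read shares were 75%, 21.4% and 7.5%. In Dnah8, tumour 32 carried a deletion of 44 bases that ended at the same base, 30718134, as the 22-base deletion of tumour 43, at a read share of 30%.

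Deletions outnumbered insertions. The members comprised 1603 deletions and 768 insertions, or 2.09 deletions per insertion, and they removed 10727 bases and added 6146. A tumour held a median of 29 deletions, the fewest being 14 in tumour 7 and the most 148 in tumour 2. It held a median of 13.5 insertions (5 to 79). Deletions were the majority in 43 tumours. Tumour 24 held 18 of each.

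Members were present in every tumour analysed. The median number was 46 and the mean 53.9 ± 34.4 (SD, n = 44), with 23 in tumours 38 and 41 and 227 in tumour 2. Tumour 5 followed tumour 2 with 149, and both together held 376 members, 15.9% of the total. All the others had between 23 and 94.

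**Figure D1:**
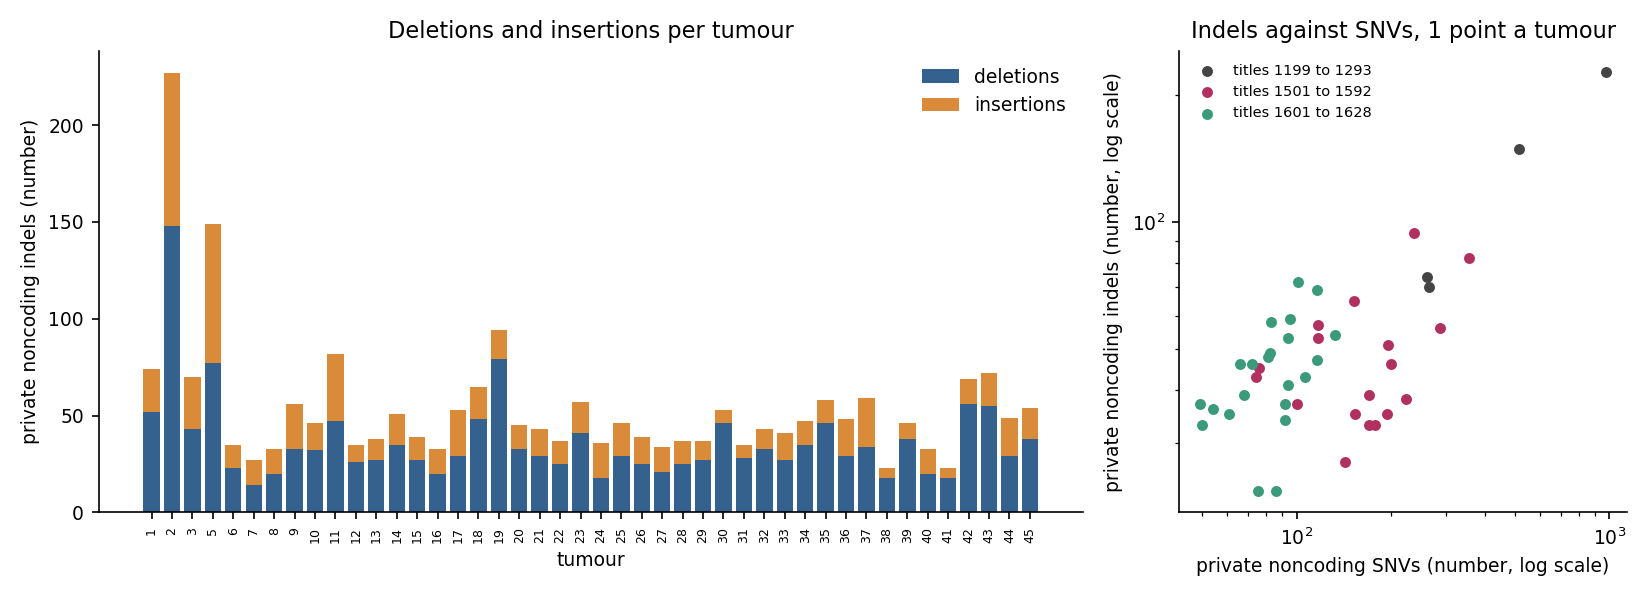
Left, the number of private noncoding deletions and insertions in each of 44 tumours, stacked. Right, that number against the number of private noncoding SNVs on log axes, 1 point a tumour, coloured by run of sample titles; tumours 2 and 5 lie at the upper right with 227 and 149 indels.

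The insertion share was lower among members than among the noncoding indels shared by 2 or more tumours, of which there were 2161. Per tumour, 13.2% to 50% of the members were insertions, with a median of 31.9%, against 37.6% to 47.6% of the shared indels, with a median of 41.8%. The ranges overlapped, but the members' share was the lower one in 38 of 44 tumours. The mean difference was -10.4 percentage points (SD 9.31, n = 44 tumours; paired sign-flip permutation test, two-sided, p = 1e-05, the smallest that the resamples can give; Benjamini-Hochberg adjusted p = 2.17e-05 over 13 tests). Counted once each, 32.4% of the members and 40.1% of the shared indels were insertions. Among the noncoding indels in exactly 2 tumours the share was 34.9%, close to that of the members. The difference was -10.9 points over the 18 tumours titled 1501 to 1592 and -11.0 over the 22 titled 1601 to 1628. Shared indels recur across tumours, so the tumours are not fully independent on that side of this and the following comparisons with them. A site that changes in many lengths also divides its carriers among alleles, which then count as private. The rule itself can thus enter each of these comparisons, and the tests cannot tell its part apart.

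Changes of 1 base were the most frequent size, but within most tumours they made up a smaller share of the members than of shared indels. They numbered 783, or 33% of the members, followed by 383 changes of 2 bases, 311 of 4 and 136 of 3. Their share had a median of 27.7% over tumours, was lowest in tumour 24 at 11.1% and highest in tumour 30 at 62.3%, against 36.3% to 45.4% and a median of 42.9% for shared indels. The members' share was lower in 37 of 44 tumours, by a mean of 11.8 points (difference -11.8, SD 11.7; sign-flip permutation test, adjusted p = 2.17e-05). Counted once each, the shares lay much closer, at 33% and 35.8%, since indels of many tumours weigh more in the per-tumour value. Among the noncoding indels in exactly 2 tumours the share was 32.3%, so a share this low is not particular to the members. The difference held in sign in both title runs. Without positions that hold several indel alleles, the mean shares were 35.4% and 44.9%, a difference of -9.48 points. This setting does not remove all division of carriers among alleles, whose part was not tested. Tumour 30 stood out for the highest 1-base share and the lowest insertion share, with 33 changes of 1 base among 53 members and 7 insertions.

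Even lengths prevailed. Of the 1588 members that change 2 or more bases, 1184 (74.6%) change an even number, and among shared indels 73.6% do. Changes of 4 bases were more frequent than those of 3 or 5 in both classes, with 311, 136 and 85 members.

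Insertions were longer than deletions at the centre, whereas the longest changes were deletions. The median insertion added 4 bases (quartiles 1 and 9.25) and the longest added 73. The median deletion removed 2 bases (quartiles 1 and 5) and the longest removed 262. Of the 112 members of 30 or more bases, 62 were deletions and 50 were insertions.

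**Figure D2:**
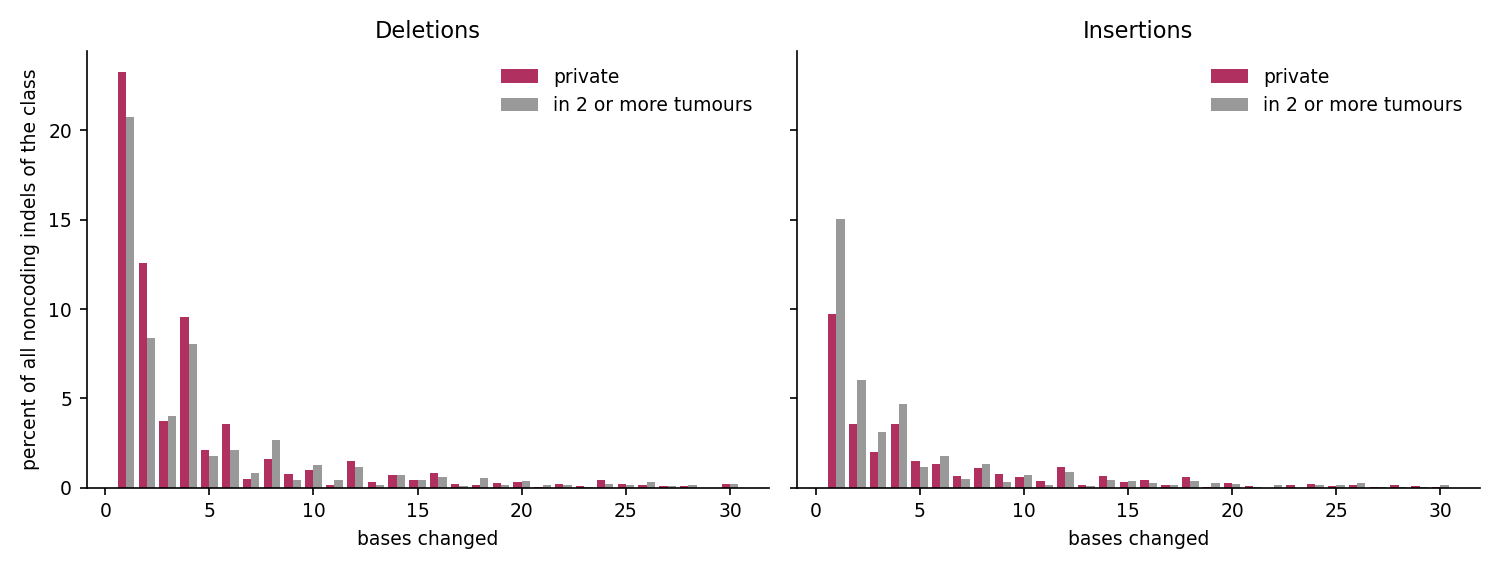
Percent of the private (red) and shared (grey) noncoding indels that are deletions (left) or insertions (right) of 1 to 30 bases; all private bars refer to 2371 indels and all grey ones to 2161. Among deletions the bars at 4 and 6 bases stand above those of their odd neighbours, and 1-base insertions form a smaller part of the private indels.

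The 5 longest deletions removed 262 bases at chrY:90741599-90741860 in tumour 29, 232 bases in an intron of Eprs, the glutamyl-prolyl-tRNA synthetase gene, in tumour 12, 206 bases in an intron of the myosin gene Myo1h in tumour 24, and 168 and 166 bases between genes on chromosome 13 in tumours 42 and 22. Their read shares were 90.3%, 94.1%, 32.6%, 36.7% and 30% in that order. The chromosome 13 deletions overlapped, spanning 66850784 to 66850951 and 66850803 to 66850968. The longest insertions were 73 bases in Nckap1, which encodes a subunit of the WAVE actin regulator, at 11.8% in tumour 25, and 71 bases between genes on chromosome 4 at 100% in tumour 44. A pair of 66-base insertions followed at 1 position of Dnah8, both in tumour 25, at 96.4% and 2.38%, and then 64 bases in Ngdn at 60% in tumour 31.

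Tandem repeats were more frequent in the bases changed by members than in those changed by shared indels. A change of 2 or more bases was counted as a repeat if at least 2 whole copies of a shorter unit made it up. The loss or gain of 1 copy, such as the CT lost in Zc3h11a, was thus not counted. By this measure 786 of 1588 members (49.5%) were repeats, against 34.5% of 1388 shared indels. Per tumour the members' share ran from 30% to 71.9% with a median of 53.6%, and that of shared indels from 23.6% to 36.6% with a median of 29.3%. It was higher among members in all 44 tumours, by a mean of 21.8 points (SD 10.2). The difference was 20.1 points in tumours titled 1501 to 1592 and 24.9 in those titled 1601 to 1628. A repeat that occurs in many lengths divides its carriers among alleles, which then count as private. The rule itself thus enters this comparison, which is given as a description, with no test. When positions with several indel alleles were left out, which was decided after seeing the data, the mean share among members was 41.5% and the difference was 20.3 points. This setting keeps alleles that begin a few bases apart, so it does not remove the splitting. The noncoding indels in exactly 2 tumours held 40.2% repeats.

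Of the 786 repeats, 350 had a unit of 1 base, 294 of 2, 64 of 3, 51 of 4, 14 of 5, 7 of 6 and 6 of 7 or more. Among the runs of 1 base, 256 (73.1%) were of A or T. Among the dinucleotide repeats, 165 were CA or GT repeats in any phase, 121 were GA or CT repeats, 5 were AT and 3 were CG. Deletions made up 231 of the changes with a unit of 1 base and 216 of those with a unit of 2. Insertions and deletions of 2 or more bases had like shares of repeats, 48.4% and 50.05%.

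Changes of 1 base were mostly of A or T. There were 552 deletions of 1 base, of which 222 removed A, 179 T, 87 G and 64 C, and 231 insertions, of which 74 added T, 70 A, 46 G and 41 C. Per tumour the share of A or T ran from 33.3% to 100% among members with a median of 70.2%, against 52.0% to 67.0% and a median of 58.4% among shared indels. It was higher among members in 32 of 42 tumours, by a mean of 9.08 points (SD 12.9, n = 42; sign-flip permutation test, adjusted p = 9.75e-05). The difference was 7.23 points and did not pass the test over the tumours titled 1501 to 1592 (adjusted p = 0.106). Among intergenic variants it was 0.183 points over 11 tumours (sign-flip permutation test, adjusted p = 0.963). The ends of the members' range, in tumours 15 and 7, rest on 6 changes of 1 base each. Counted once each, 69.6% of the members' 1-base changes were of A or T. The share was 63.5% among shared indels and 63.7% among those in exactly 2 tumours.

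**Figure D3:**
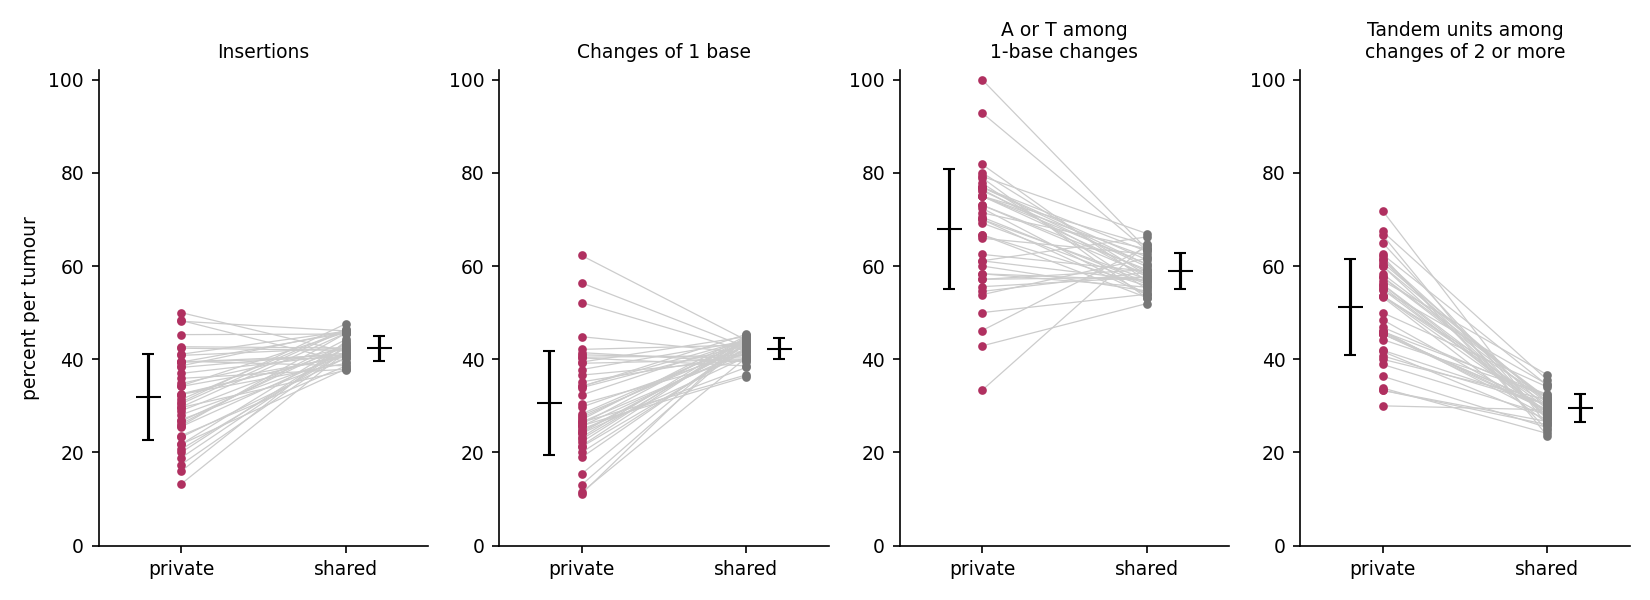
Percent of indels per tumour that are insertions, change 1 base, change an A or T (of the 1-base changes) or are made up of tandem units (of the longer changes), among private (red) and shared (grey) noncoding indels, with a line for each tumour and the mean ± SD in black. Changes made up of tandem units are more frequent among private indels in all 44 tumours, at a mean of 51.3% against 29.5%.

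The length of the repeat around a member could be read where the annotation writes the change at its last possible place and the table at its first. This was possible for genes on the plus strand whose intron end is placed by an SNV of the same intron. It gave 118 members, of which 79 were deletions. At least 1 further whole copy of the deleted unit followed in 60 of the 79 (75.9%), and in 69 of 117 shared deletions read the same way (59.0%). This difference was not tested. The 27 deletions of 1 base lay in runs with a median of 5 bases and a longest run of 18, and 4 removed a base with no equal neighbour. Of intronic insertions on both strands, 365 of 609 members (59.9%) were written as a duplication of the adjacent bases, against 66.1% of 753 shared insertions.

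More than 1 indel allele was listed at the positions of 534 members (22.5%), against 15.2% of the shared indels. Splitting of carriers among alleles enters this comparison, which was therefore not tested. The fullest was an intergenic run of A on chromosome 13 at position 74864699, with 8 alleles in 13 tumours, from a loss of 3 bases to a gain of 7, of which 5 alleles were private. An intergenic run on chromosome 6 at 38377208 held 6 insertion alleles of 11 to 25 bases in 9 tumours, 4 of them private. In Dctn6, the gene of a dynactin subunit, 6 insertion alleles of 26 to 42 bases began at position 34090892 of chromosome 8 in 7 tumours. In Rdh1, a retinol dehydrogenase gene, insertions of 3, 4, 5 and 15 C bases at position 127764917 of chromosome 10 were each private, at read shares of 100%, 100%, 71.4% and 80%. In all, 356 members (15%) lay within 10 bases of a member of another tumour. Of the 7034 private noncoding SNVs, 164 (2.33%) lay that close to a private noncoding SNV of another tumour. Splitting of carriers among alleles enters this comparison too, and it was not tested.

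Within a tumour, 389 members (16.4%) lay within 50 bases of another call. They included 86 pairs of members. In 54 pairs, from 26 tumours, both alleles began at the same position, with a median summed read share of 45.5%. Of the other 32 pairs, 26 had read shares within 5 points of each other. An example is Cog5, the gene of a Golgi tethering complex subunit, where tumour 3 carried deletions of 2 and 34 bases that began 11 bases apart, both at 100%. Another is Dock3, a guanine nucleotide exchange factor gene, where tumour 23 carried deletions of 2 and 16 bases, 9 bases apart and both at 100%. Whether such a pair is 1 change written as 2 was not tested.

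Members had far higher read shares than private noncoding SNVs of the same tumours. Over tumours, the members' median read share was lowest in tumour 42 at 31.6% and highest in tumour 29 at 66.7%, and its midpoint was 49.4%. That of private noncoding SNVs ran from 13% to 46.2%, the highest in tumour 2, with a median of 16.7%. The members' median was higher in 44 of 44 tumours, by a mean of 28.7 points (47.5% ± 6.82 against 18.8% ± 7.49, SD, n = 44; sign-flip permutation test, adjusted p = 2.17e-05). It was 31.5 points in tumours titled 1501 to 1592 and 29.5 in those titled 1601 to 1628. Over all variants, 16.3% of the members and 49.1% of the SNVs were under 20%. Between 40 and 60% lay 29.7% of the members and 23.4% of the SNVs.

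A read share of exactly 100% was given for 327 members (13.8%) and for 101 private noncoding SNVs (1.44%). Such members were found in all 44 tumours, from 3 to 14 per tumour with a median of 8, and 6 lay on the X chromosome. They were unlike in size: 4.98% of the 1-base changes, 13.5% of changes of 2 to 9 bases, 30.9% of those of 10 to 29 and 30.4% of those of 30 or more were at 100%. Among repeats with a unit of 3 or more bases 48.6% were at 100%, and among those of 1 and 2 bases 13.4% and 20.4%. Among intronic members, the share at 100% was 9.76% within 50 bases of an exon, 12.7% at 51 to 200 bases and 19.6% beyond. Depth at these sites is unknown, and its part in the read shares was not tested. Of the 5 members ranked highest by read share and then by length, 4 were deletions of 68 to 109 bases, in Krt71, Mospd2, Rftn2 and between genes on chromosome 18, and 1 was the 71-base insertion on chromosome 4.

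**Figure D4:**
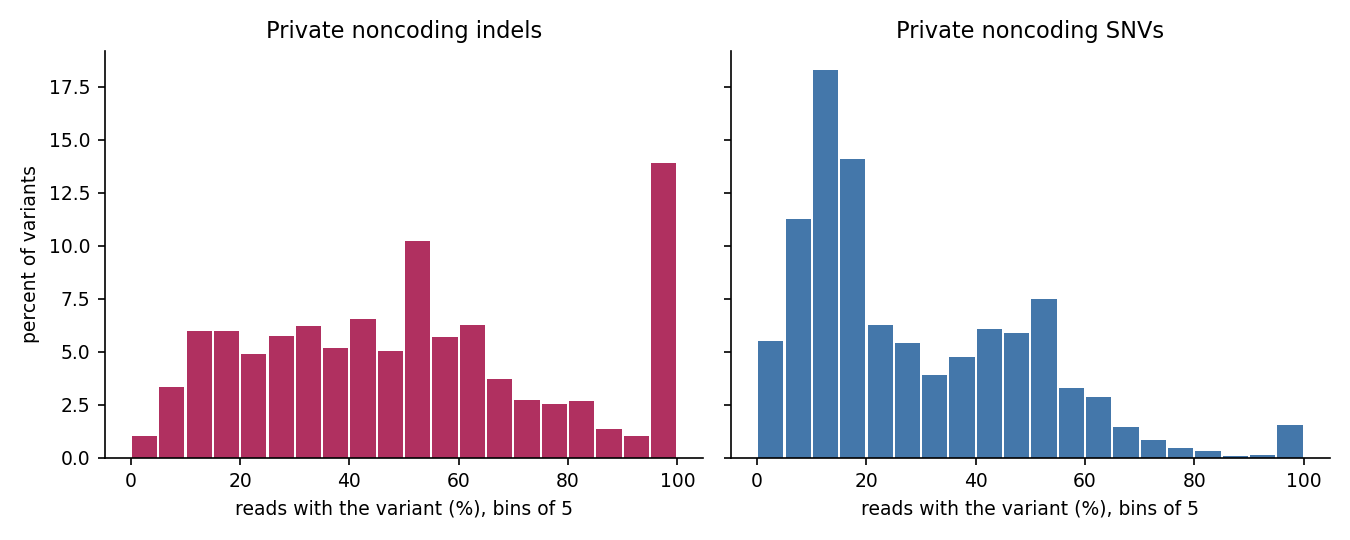
Read shares of 2371 private noncoding indels (left) and 7034 private noncoding SNVs (right) in bins of 5%, as percent of the variants of each kind. The SNVs gather below 20%, whereas the indels spread around 50% with a further peak at 100%.

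Compared with shared indels of the same tumour, the members' median read share was 3.24 points lower (47.5% ± 6.82 against 50.7% ± 1.45; SD of the difference 7.09, n = 44; lower in 27 tumours, higher in 9, equal in 8; sign-flip permutation test, adjusted p = 0.00459). This direction turned when only calls of at least 20% were kept, where members were 5.15 points higher (adjusted p = 9.1e-05). It also turned when members within 50 bases of another call were left out, with a difference of 1.74 points that did not pass the test (adjusted p = 0.139). The call was lost with calls of at least 10%, between genes, with members called in 1 or 2 tumours and within titles 1501 to 1592 (permutation test, adjusted p = 0.457, 0.585, 0.659 and 0.39).

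Insertions had higher read shares than deletions. Their per-tumour medians ran from 23.1% to 100% with a median of 54.0%, against 25.5% to 66.7% and 46.4% for deletions. Insertions were higher in 27 of 44 tumours, by a mean of 9.88 points (SD 19.3; sign-flip permutation test, adjusted p = 0.00243). In introns alone the difference was 6.01 points and did not pass (adjusted p = 0.086), nor did it without positions of several alleles, at 4.11 points (adjusted p = 0.145). The call was also lost between genes and within titles 1501 to 1592 (permutation test, adjusted p = 0.271 and 0.0592). Over all members, the median was 55.6% for insertions of 2 or more bases, 45.5% for 1-base insertions, and 46.2% for deletions of either size. Changes of 1 base had a median 4.34 points below that of longer ones (SD 12.5, n = 42; lower in 25 tumours; sign-flip permutation test, adjusted p = 0.0345). This call was lost in introns alone, where the difference was -0.179 points (adjusted p = 0.935), and between genes (adjusted p = 0.271). It was also lost within titles 1501 to 1592 and within titles 1601 to 1628 (permutation test, adjusted p = 0.114 and 0.211), and without positions of several alleles (adjusted p = 0.122).

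By repeat class the read shares differed in level. Dinucleotide repeats had a median of 33.3% (quartiles 18.6 and 69.2%), runs of 1 base 50% (22.2 and 71.1%) and longer units 80% (47.1 and 100%). Changes of 2 or more bases that were not counted as repeats had a median of 50% (27.3 and 73.2%). These are over all members, and the classes were not tested against each other.

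Introns held 1890 members and intergenic sequence 481. The intron share per tumour ran from 56.5% to 88.9% with a median of 80.2%, against 45.7% to 83.0% and a median of 62.7% for private noncoding SNVs. It was higher among indels in 40 of 44 tumours, by a mean of 14.7 points (SD 10.2; sign-flip permutation test, adjusted p = 2.17e-05). Counted once each, introns held 79.7% of the members, 84.5% of the shared noncoding indels and 80.1% of those in exactly 2 tumours. A high intron share is thus not particular to the members. The distance from the nearest exon was written for 1887 intronic members, with a median of 102 bases, against 105 for private intronic SNVs and 88 for shared intronic indels. Within 50 bases of an exon lay 22.3% of them and beyond 200 bases 17.1%.

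Tumours with many private SNVs also held many private indels. Both numbers count variants called in 1 tumour by the same rule, so their relation is given as a description, with no test. Over 44 tumours Pearson's r was 0.898 and Spearman's rho 0.459. Without tumours 2 and 5, the farthest from the median in SNV number, r was 0.51, so that much of the pooled value rests on them. Within titles 1501 to 1592 r was 0.495, and within titles 1601 to 1628 it was 0.523.

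The number of members lay close together in the longer runs of sample titles, and its difference did not pass the test. Tumours titled 1501 to 1592 held 27 to 94 members with a median of 44, and those titled 1601 to 1628 held 23 to 72 with a median of 44.5. The means were 48.3 ± 17.7 (SD, n = 18) and 44.6 ± 12.8 (SD, n = 22), a difference of 3.64 (permutation test, two-sided, adjusted p = 0.496). The private noncoding SNVs of the same tumours averaged 175 ± 71.7 and 84.8 ± 22.1, a difference that was not tested. Indels thus made up 22.9% ± 7.86 of private noncoding calls in the first run and 34.6% ± 6.33 in the second. This share follows the number of SNVs in its denominator and is a description, with no test. The ranges overlapped, at 14.6 to 37.2% and 21.1 to 43%. The 4 tumours titled 1199 to 1293 held 70 to 227 members, with a median of 111.5. The labels do not say what the title runs stand for.

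By chromosome, members were most numerous on chromosomes 2, 1 and 11, with 284, 270 and 212, followed by 155 on chromosome 3 and 130 on chromosome 9. Chromosomes 2, 1 and 11 held 11.98%, 11.39% and 8.94% of the members. They also led among private noncoding SNVs, with 15.24%, 11.33% and 7.66%. Of the shared noncoding indels they held 10.78%, 12.36% and 12.45%, and chromosome 3 held the most, 13.47%. High shares on these chromosomes are thus not particular to the members, and the differences in share were not tested. Tumour 2 alone held 108 members on chromosome 2 and 37 on chromosome 11, and tumour 5 held 89 on chromosome 1. Without these tumours the counts were 172, 173 and 171 on chromosomes 2, 1 and 11, each between 8.57% and 8.67% of the remaining members. The count of chromosome 11 still includes 24 members of tumour 1, 32.4% of that tumour's members, with 20 of them in a window of 20 Mb. The X chromosome held 64 members in 25 tumours, Y 9 in 6 tumours, and unplaced sequence 24 in 16 tumours. The 3 mitochondrial members, from 3 tumours, were insertions with a median read share of 9.8%.

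**Figure D5:**
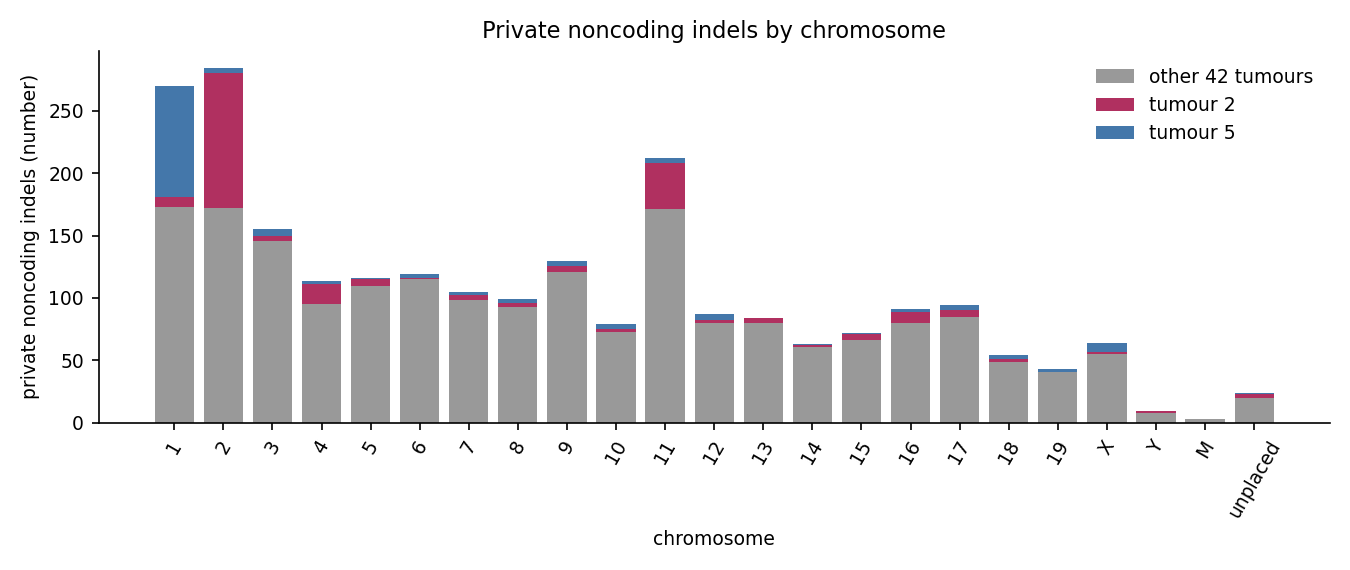
Number of private noncoding indels per chromosome, with tumours 2 and 5 in colour and the other 42 tumours in grey; M is the mitochondrial genome. Tumour 2 adds 108 to chromosome 2 and tumour 5 adds 89 to chromosome 1.

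The block of tumour 5 was compact. Its 89 chromosome 1 members made up 59.7% of that tumour's members, lay between positions 16053978 and 87844020, and 83 of them fell in a single window of 20 Mb. Insertions made up 59.6% of the block and 31.7% of the same tumour's members elsewhere. The median read share was 47.6% (quartiles 39 and 57.1%), and none was at 100%. The 108 chromosome 2 members of tumour 2 spread from 12300752 to 158436408, with 52 in the fullest 20 Mb. Their median read share was 46.6%, 74 of them (68.5%) lay between 40 and 60%, none was at 100%, and 37% were insertions. Private noncoding SNVs gathered on the same chromosomes, with 350 (68.0% of the tumour's) in tumour 5 and 626 (63.9%) in tumour 2. Their median read shares were 48% and 48.3%. Indels made up 20.3% of the private noncoding calls on chromosome 1 of tumour 5 and 26.7% on its other chromosomes. In tumour 2 they made up 14.7% on chromosome 2 and 25.2% elsewhere. The blocks are thus not particular to indels. Tandem units made up 37% of the longer changes in the tumour 5 block and 35.3% of those elsewhere in that tumour. In tumour 2 they made up 30.5% in the block and 36.5% elsewhere. Both blocks were picked for their numbers, so these are descriptions.

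Over all tumours, the fullest chromosome of a tumour held 8.89% to 59.7% of its members, with a median of 13.9%, and 8.16% to 68.0% of its private noncoding SNVs, with a median of 13.1%. The mean difference was -0.157 points (SD 5.92, n = 44; sign-flip permutation test, adjusted p = 0.864). This share is higher by construction where fewer variants are counted, and there were fewer indels than SNVs. With calls of at least 20% only, the difference was -6.89 points (adjusted p = 1.86e-05), and for intergenic variants it was 5.46 points (adjusted p = 0.0017).

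Intronic members lay in 1449 genes, of which 267 held them in 2 or more tumours, 54 in 3 or more and 12 in 4. In 5 of these 12, namely Ccne2, Ints8, Lrrc43, Rdh1 and Rhox2b, all members of the gene lay at 1 site, within 10 bases. Lrrc43 carried insertions of 1, 3, 4 and 5 T bases in tumours 17, 2, 21 and 5. Rhox2b, a homeobox gene of the X chromosome, carried deletions of 2, 2, 4 and 6 bases. Dock3, Cped1 and Zc3h11a had 2 sites, and Cog5 and Dnah8 had 4. Dst, the gene of the cytolinker dystonin, and the microRNA name Mir297-2 had 3. The 4 members under that name, which follows the deposited annotation, spread from position 104513478 to 104577646 of chromosome 8. Of these, 3 are also annotated to Nae1, so they do not mark a single microRNA gene. The other named genes were Ythdc2, an RNA helicase gene, with 5 members at 5 sites in 3 tumours, Erg, an ETS transcription factor gene, with 4 members at 3 sites in 3 tumours, and Dctn6 with 4 members at 1 site in 3 tumours. The 4 members of Dst had read shares of 37.5 to 62.5%, and the 5 of Cog5 had 33.3 to 100%.

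Of the windows of 100 kb, 76 held members of 3 or more tumours, among 1714 with a member. The fullest were on unplaced scaffold JH584304, with 8 members in 7 tumours, and on chromosome 6 from 38300000, with 6 members in 6 tumours, 4 of them at the run of A described above. Next came windows on chromosome 1 around Zc3h11a, on chromosome 13 at the run of A and on scaffold GL456212, each with 5 members in 5 tumours.

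Intronic members were counted in the genes of 4 lists. Of the 21896 protein-coding genes of the RefSeq table, 1312 (5.99%) held an intronic member, and the lists are too short to read a count against that share. None lay in the 28 genes known as off-targets of AID (activation-induced deaminase), the enzyme that mutates antibody genes, where 3 shared intronic indels lay. Among 34 names of myeloma genes, 4 held 1 member each, and the list held 5 shared intronic indels. Tumour 45 lost 1 base in the nuclear body gene Sp140 at 50%, tumour 2 lost 5 bases in the NF-kB adaptor gene Traf2 at 66.7%, tumour 29 lost 4 bases in Birc3, an inhibitor of apoptosis, at 53.8%, and tumour 21 gained 1 base in the small GTPase gene Nras at 28.6%. In the list of DNA repair and polymerase genes, tumour 33 lost an A in the translesion polymerase gene Polh at 63.6%, and Pcna, the polymerase clamp, gained a C in tumour 9 at 45.5% and lost an A in tumour 34 at 6.02%. Among 14 very long genes or fragile sites, Csmd3, Dmd, Lrp1b and Macrod2 held 8 members in 4 tumours, and the list held 3 shared intronic indels. The 3 in Dmd, the dystrophin gene, were all in tumour 11, at 40%, 50% and 100%.

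The antibody loci, placed by the RefSeq table of GRCm38.p6, held 9 members: 3 in Igh, 5 in Igk and 1 in Igl. Private noncoding SNVs in the same loci numbered 48, 177 and 58. The Igk members were all deletions, of 1, 1, 2, 2 and 15 bases, each in another tumour, at read shares of 9.52 to 45.8%.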

How the data were processed

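The data are 1 annotated variant table from exome capture (Agilent SureSelect mouse exon, 50 Mb, per the labels' protocols). GATK and the mm10 build are named in the submitters' processing notes; the sources used here do not give the aligner, filters or annotator. In the deposited table each tumour cell is a percent, read from its values as the share of reads with the alternate allele, and a further column counts the tumours with a value. That column equalled the number of filled cells in every row used. Of 25823 rows, 199 with several alternates were left out. Depth is unknown. No columns of other samples were used. The tumours come from separate mice.

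Alleles were trimmed of common bases. Shares and medians were taken per tumour with at least 5 variants in each class compared. Differences were tested over tumours with two-sided sign-flip or label permutation tests (100000 resamples, smallest p 1e-05), adjusted by Benjamini-Hochberg over 13 tests. Of these, the repeat share, the correlation with SNVs and the indel share of calls (added later) are given as descriptions. Scripts ran in Python 3.11.15 with pandas 2.3.3, numpy 2.4.6 and matplotlib 3.10.9 and were tested on simulated data. Tumours are numbered in accession order. Named were the 5 longest deletions and insertions, the 5 highest read shares, up to 15 genes with members in the most tumours, up to 5 windows of 100 kb, and the members in the gene lists, of which 1 result is not reported here. Positions with several alleles, neighbouring pairs and the blocks of tumours 2 and 5 were picked afterwards. Members, lists and tests were chosen with earlier results of these data known.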

Additional observations from a re-analysis of the deposited data

How the results depend on the processing

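Of 151 alternative values, 126 kept their direction and their side of the threshold. Both counts include the results given as descriptions, for which the side of the threshold is not to be read as a test. The insertion, 1-base and intron shares and the read share of indels against SNVs did so under all alternatives run, with differences of -12.8 to -7.42, -14.3 to -9.48, 11 to 18.9 and 19.1 to 33.7 points. The repeat share, given as a description, kept its direction, with differences of 20.1 to 24.9 points. The following values lost the call, gained one or turned. The read share of members against shared indels was -0.893 points with calls of at least 10%, 5.15 with at least 20%, 1.74 without close neighbours, -0.43 with calls in 1 or 2 tumours, -1.63 for intergenic variants and -1.12 for titles 1501 to 1592. Insertions against deletions gave 6.01 points in introns, 18.4 between genes, 8.29 for titles 1501 to 1592 and 4.11 at positions of 1 allele. Changes of 1 base against longer ones gave -0.179 points in introns, -12.6 between genes, -5.18 for titles 1501 to 1592, -4.22 for titles 1601 to 1628 and -3.83 at positions of 1 allele. The A or T share gave 0.183 points between genes and 7.23 for titles 1501 to 1592. The fullest-chromosome share gave -6.89 points with at least 20%, -2.33 with calls in 1 or 2 tumours, 5.46 between genes, 0.421 without tumours 2 and 5, 1.99 for titles 1501 to 1592 and 1.99 at positions of 1 allele. The correlation with SNVs, given as a description, was 0.495 for titles 1501 to 1592, and the title difference in number was -0.101 between genes. Fewer tumours or variants enter the intergenic and title settings; other causes were not tested. Only the alternative on positions of 1 allele was chosen after seeing the data. No paired analysis was possible because the labels number no replicates that link one sample with another; the tests within a tumour pair classes of its variants, not samples. Without depth, a missing call and a low read share cannot be weighed.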
